A study of Schmidtea mediterranea with 15 samples.

Results

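A set of 150 of the 26671 transcript models of the planarian Schmidtea mediterranea showed a partial fall after gamma irradiation, with a loss short of 2-fold at 24 h and of at least 2-fold by 96 h. The models were chosen from mean RPKM (reads per kilobase of model, scaled to the size of the library) in 3 of the 5 groups of libraries. On the log2(RPKM + 0.5) scale, the mean at 24 h had to lie above -1 and at or below -0.3 relative to 0 h, and the mean at 96 h at or below -1. The further change between 24 and 96 h had to be above -0.8, and the mean at 0 h at least 3 RPKM. The changes at 24 and 96 h against 0 h are therefore what the selection asked for, and they are given here as a description. The libraries of 48 and 72 h played no part in the selection.

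Planarians are freshwater flatworms that keep a large pool of dividing stem cells, the neoblasts, which replace the tissues of the adult and are sensitive to ionising radiation. After a dose that removes neoblasts, transcripts made in those cells are lost first, and transcripts of their short-lived descendants are known to follow as these cells mature without being replaced. In RNA from whole animals, fewer cells of a type and less RNA per cell cannot be told apart.

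The study followed whole adult worms of the clonal CIW4 line collected 24, 48, 72 or 96 h after a gamma dose of 6000 rad, with unirradiated worms (0 rad, 0 h) as the control, in 3 libraries each and 15 in all. All worms, irradiated or not, were of that line and had been starved before use. The number of animals behind a library is not given in the sources used here. The labels do not say whether the 3 libraries of a time were grown apart, and p-values therefore reflect the spread between these libraries only. Because 0 h was the only unirradiated time, radiation and elapsed time cannot be told apart. The read totals worked out from the RPKM values were 16435841 to 30707808 in irradiated libraries and 9749391 to 13801926 at 0 h. No gene names accompany the IDs in the deposited table, so the labelled tissue could not be checked against marker genes, and no gene name or role is attached to any model. Members are called by their rank in mean RPKM at 0 h, rank 1 being the highest, and only the pair with the largest called falls between 48 and 72 h is named by ID.

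The 150 members covered a wide range of abundance. Their mean RPKM at 0 h ran from 3.04 to 612.6 with a median of 12.5, against a median of 6.72 over the 21231 models tested (those with at least 1 RPKM in at least 3 libraries, which all 150 passed). The quartiles were 7.18 and 29.4 RPKM. The selection required at least 3 RPKM at 0 h, so the higher median of the members is partly set by it. The models were 328 to 5446 bases long with a median of 1265 bases, against a median of 1129 bases over all models tested. At least 50 reads stood behind the value in every library for 114 members, whereas 11 members had under 20 reads in some library. The least abundant member, rank 150, rested on 4 to 23 reads per library at 0 h.

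Most of the fall was present by 24 h, and the daily steps after that became smaller. The selection used the 24 and 96 h means and limited the further change between them, so the share present by 24 h is partly set by it. Relative to 0 h, the members' median log2 change was -0.79 by 24 h, -0.997 by 48 h, -1.06 by 72 h and -1.13 by 96 h. The quartiles were -0.91 and -0.67 on the first day, -1.103 and -0.92 on the second, -1.16 and -0.98 on the third and -1.22 and -1.05 on the last. Taken per member, the median share of the 96 h log2 change already present was 68.2% by 24 h, 89.2% by 48 h and 94.5% by 72 h. The lowest share at 48 h was 13.8%, in a member described below. Over all models tested the median log2 change was -0.01, 0.02, 0.02 and 0.03 at the same times.

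**Figure D1:**
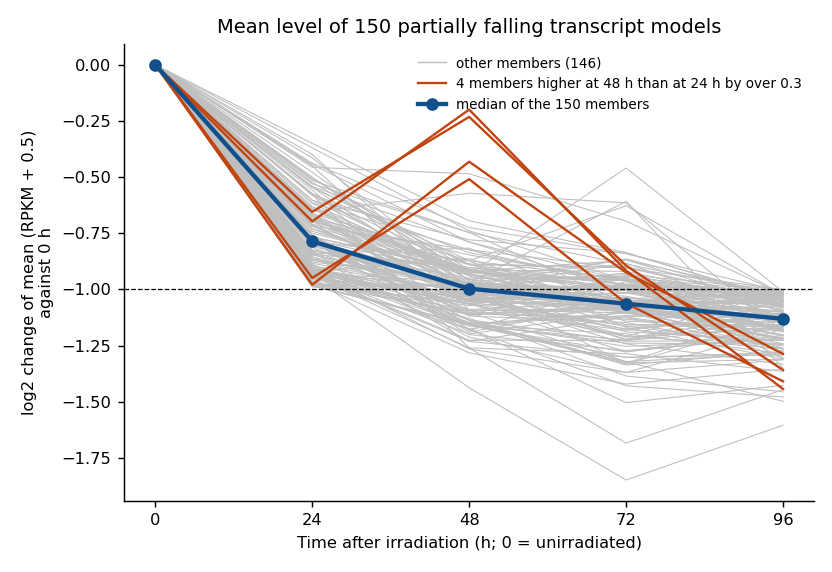
Log2 change of the mean (RPKM + 0.5) against 0 h (vertical axis) at each time after irradiation in hours (horizontal axis) for the 150 members. Grey lines are 146 members, orange lines the 4 members whose 48 h mean lay above their 24 h mean by over 0.3, the blue line is the median, and the dashed line marks a 2-fold fall. The median lies at -0.79 at 24 h, at -0.997 at 48 h and at -1.13 at 96 h, while the 4 orange lines turn up at 48 h.

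The limits of the selection lay within a continuous range of models. The member nearest to the limit at 24 h had a log2 change of -0.99, and the nearest model outside it that met all other criteria had -1.0005. At 96 h the nearest values were -1.0006 inside and -0.9998 outside, and 62 members lay between -1.1 and -1 while 100 models that met the other criteria lay between -1 and -0.9. The nearest values for the step between 24 and 96 h were -0.79 inside and -0.81 outside. For the level at 0 h they were 3.04 RPKM inside and 2.98 RPKM outside. No model met the other criteria with a 24 h change above -0.3, and the smallest fall at 24 h among members was -0.35. The limits on the 96 h change and on the further change left little room for such a model.

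Together the members held a share of reads that was more than 2-fold lower at 96 h than at 0 h. Without rank 1, which varied widely and is described below, the other 149 members took 0.548%, 0.551% and 0.550% of the reads in the 3 libraries at 0 h. They took 0.319%, 0.321% and 0.319% at 24 h, and 0.276%, 0.274% and 0.274% at 48 h. At 72 h they took 0.252%, 0.250% and 0.250%, and at 96 h 0.238%, 0.247% and 0.242%. The libraries of each time lay close together, and those of 72 h all lay below those of 48 h, the step that the selection did not use. Abundant and long models weigh most in such a sum, so it does not show the change of a typical member. Rank 2 (1974 bases) had means of 241 RPKM at 48 h and 210 RPKM at 72 h. Rank 36 (4088 bases), high at 48 h and described below, had 26.9 and 16.8 RPKM, and both weigh heavily in that step. The steps between successive times became smaller, with means of 0.320% ± 0.00125 at 24 h, 0.275% ± 0.000941 by 48 h, 0.251% ± 0.00148 by 72 h and 0.243% ± 0.00452 by 96 h (SD, n = 3). The members were chosen for lower means at 24 and 96 h than at 0 h, and no test is given for these shares.

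**Figure D2:**
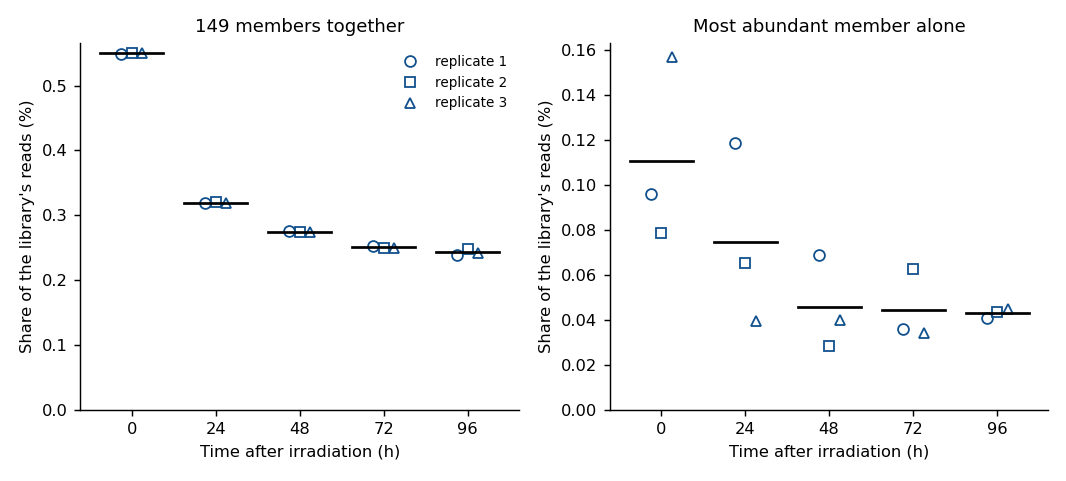
Share of the reads of each library in percent (vertical axis) by time after irradiation in hours (horizontal axis), for 149 members together (left) and for the most abundant member alone (right). Symbols are the 3 replicate libraries and bars their mean. The libraries of the 149 members do not overlap between successive times, with the closest values being 0.247% at 96 h, against 0.250% at 72 h, while those of rank 1 overlap.

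The only comparison whose means use no library of the selection is 72 h against 48 h, and few single members passed it. Its standard errors and p-values rest on the spread in all 15 libraries, those of the selection included. A limma fit to only the 6 libraries compared called 1 member lower, and its share over all models tested is not given here. This comparison lies within the interval of 24 to 96 h, over which the selection limited the further fall. Of the 150 members, 4 were called lower at 72 h than at 48 h, a share of 2.67% (limma, Benjamini-Hochberg adjusted p below 0.05 over all models tested), against 1.40% of all models tested, and 0 were called higher, against 0.410% of all models tested. At an unadjusted p below 0.05, 31 members were lower and 0 higher, where 7.06% and 5.76% of all models tested were lower and higher. A limma-voom fit to the recovered reads called 10 members lower and 0 higher, against 2.17% and 1.22% of all models tested in that fit. The log2 change was below 0 in 116 members (77.3%), against 51.0% of all models tested, with a median of -0.07 in members and -0.003 over all models tested. All 3 libraries at 72 h lay below all 3 at 48 h for 32 members, against 8.70% of models tested, and above them for 3 members, against 8.00%.

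The size of these changes was near the precision of the fit. The median standard error of a member's change was 0.09 on the log2 scale, slightly more than the median change itself. A fall of 1.5-fold between 48 and 72 h lay outside the 95% confidence interval for 137 members and inside it for 13. Among the 75 most abundant members (12.6 RPKM or more at 0 h) the median change was -0.08 with a median standard error of 0.06, and 58 were below 0. Among the 75 least abundant the median change was -0.06 with a median standard error of 0.12, and 58 were again below 0. All 4 calls fell among the more abundant 75. The count of 4 became 1 without 48 h replicate 2 or without 72 h replicate 2, and 2 without 48 h replicate 3 or without 72 h replicate 3. Of the 2 called without 48 h replicate 3, only 1 was among the 4.

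**Figure D3:**
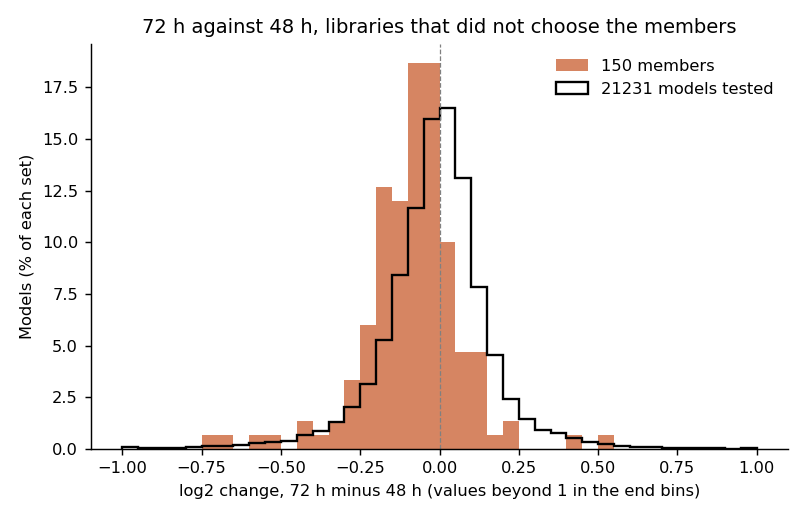
Distribution of the log2 change of 72 h minus 48 h (horizontal axis) as a percentage of each set of models (vertical axis), for the 150 members (filled) and the 21231 models tested (outline). The members sit to the left of the outline, with medians of -0.07 and -0.003.

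The 4 members that passed this test were of unlike kinds. Rank 2 declined at high level in steps that became smaller, with a last step from 72 to 96 h of -0.03 (SE 0.03, limma adjusted p = 0.692). It had 463, 454 and 473 RPKM at 0 h, 292, 301 and 297 at 24 h, 240, 239 and 245 at 48 h, 200, 214 and 215 at 72 h, and 203, 210 and 204 at 96 h. Its libraries were tight at every time, and those of 72 h lay wholly below those of 48 h. The change was -0.20 (SE 0.03, limma adjusted p = 0.00177, lower in 3 of 3 libraries), and the step from 24 to 48 h was -0.30 (SE 0.03, limma adjusted p = 2.21e-05). The fit to only 6 libraries lost the 72 h call (limma adjusted p = 0.104). Rank 26 had 21.2, 18.9 and 21.7 RPKM at 72 h, against 24.4, 26.0 and 25.9 at 48 h, a change of -0.30 (SE 0.06, limma adjusted p = 0.0215). Its call was lost without 72 h replicate 2 or without 48 h replicate 2 or 3 (limma adjusted p up to 0.0960), and in the fit to 6 libraries (0.111).

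The other 2 members called in this step, SMED30023398 (rank 12) and SMED30010404 (rank 36), did not decline steadily. SMED30023398, of 420 bases, had 85.1, 90.0 and 75.5 RPKM at 0 h, 33.9, 62.4 and 57.7 at 24 h, 62.2, 75.4 and 80.4 at 48 h, 50.0, 37.1 and 45.0 at 72 h, and 30.8, 29.7 and 30.8 at 96 h. At 48 h its values ran into the range of 0 h, and all libraries at 72 h and at 96 h lay below both. Between 48 and 72 h it fell by 0.72 on the log2 scale (SE 0.17, limma adjusted p = 0.0489). That call is at the edge of the threshold and was lost under 14 of 22 alternatives, with adjusted p-values from 0.00145 to 0.204. At 48 h it was not called against 0 h (log2 change -0.20, SE 0.17, limma adjusted p = 0.385), so its level there could not be told from that of unirradiated worms. The fall at 72 h against 0 h was -0.92 (SE 0.17, limma adjusted p = 0.000422).

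SMED30010404 is a much longer model of 4088 bases and followed the same course. It had 30.9, 30.8 and 33.5 RPKM at 0 h, 15.0, 24.2 and 20.7 at 24 h, 22.8, 27.6 and 30.3 at 48 h, 19.4, 13.8 and 17.3 at 72 h, and 11.6, 12.9 and 11.7 at 96 h. Between 840 and 3573 reads per library lie behind them. Every library at 72 h lay below every library at 48 h, and the change was -0.67 (SE 0.15, limma adjusted p = 0.0325). The call was lost when any of 48 h replicate 2 or 3 or 72 h replicate 2 or 3 was left out (limma adjusted p up to 0.150), and when only 6 libraries were fitted (limma adjusted p = 0.0997). At 48 h it too was not called against 0 h (log2 change -0.24, SE 0.15, limma adjusted p = 0.219).

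Both belong to a group of 4 members, ranks 7, 12, 36 and 53, whose 48 h mean lay above the 24 h mean by over 0.3 on the log2 scale. The group was noticed after the values had been seen. Rank 7, of 385 bases, had 43.4, 76.0 and 67.0 RPKM at 24 h, 68.5, 93.1 and 91.9 at 48 h, and 69.2, 44.0 and 59.0 at 72 h, with a mean of 120.4 ± 3.19 at 0 h and 45.0 ± 1.78 at 96 h (SD, n = 3). Rank 53, of 1541 bases, had 7.07, 12.9 and 9.55 RPKM at 24 h, 12.8, 14.7 and 16.3 at 48 h, and 11.9, 8.33 and 10.4 at 72 h, with a mean of 19.9 ± 1.27 at 0 h and 7.84 ± 0.151 at 96 h. In all 4 the 24 h value was lowest in replicate 1, the 48 h value in replicate 1 and the 72 h value in replicate 2. This order was seen in 7 of the 150 members, these 4 included. Taken singly, 61, 42 and 43 members were lowest in those libraries. The order was not counted over all models tested, so whether 7 is many is not known. The ratio of SMED30023398 to SMED30010404 stayed between 2.26 and 2.92 in all 15 libraries, while SMED30023398 ran from 29.7 to 90.0 RPKM and SMED30010404 from 11.6 to 33.5 RPKM. Whether the 4 models share reads was not tested.

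Only 1 of these 4 members passed the test for a higher level at 48 h than at 24 h, whereas 2 passed for the fall between 48 and 72 h. The 4 were picked out by their 24 and 48 h means, so tests of the rise reuse the values that defined the group. Picking a high 48 h mean also favours a fall to 72 h, and the values below are given as a description. Between 48 and 72 h the changes of the other 2, ranks 7 and 53, were -0.56 and -0.50 with limma adjusted p-values of 0.151 each. In the limma fit the log2 changes from 24 to 48 h were 0.46, 0.54, 0.44 and 0.58 for ranks 7, 12, 36 and 53, with SE of 0.18, 0.17, 0.15 and 0.16. Only that of rank 53 was called (limma adjusted p = 0.0258), and the other adjusted p-values were 0.108, 0.0532 and 0.0634. Without 24 h replicate 1, the lowest library for all 4, the changes were 0.23, 0.27, 0.25 and 0.38 and 0 were called, with limma adjusted p-values from 0.106 to 0.407. Without 24 h replicate 2, the highest library for all 4, the changes were 0.63, 0.70, 0.59 and 0.78 and all 4 were called, with limma adjusted p-values from 0.00283 to 0.0468. The limma-voom fit to recovered reads, with all 15 libraries, called all 4 higher at 48 h than at 24 h, where it called 8.79% of all models tested higher. In that fit the 4 were also called lower at 72 h than at 48 h.

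**Figure D4:**
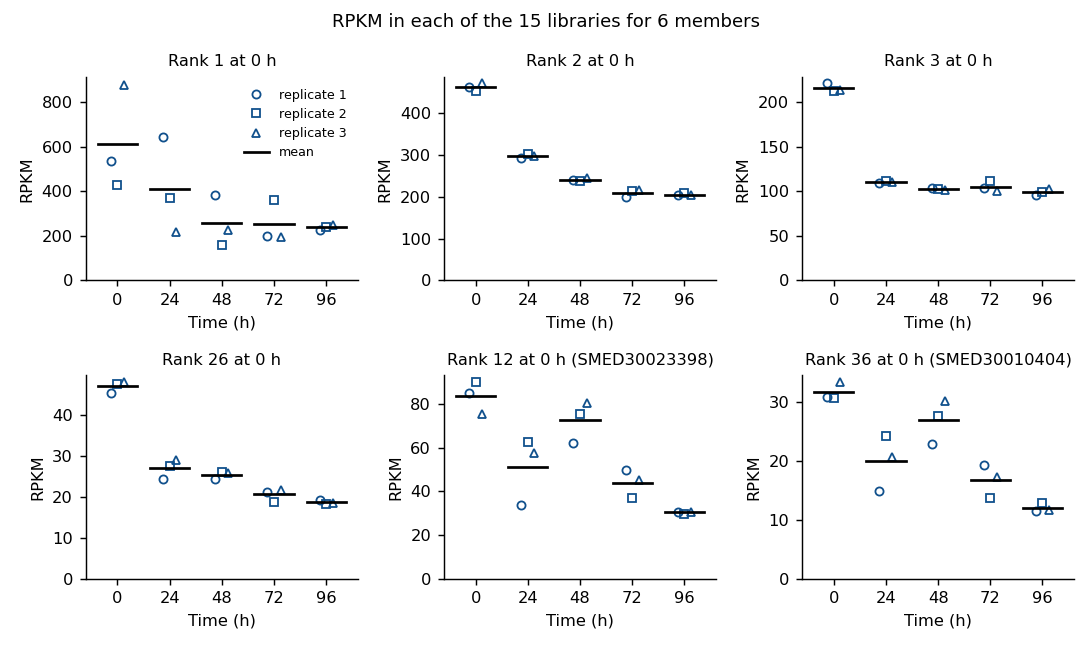
RPKM (vertical axis, from 0) in each library at each time after irradiation in hours (horizontal axis) for 6 members. Symbols are replicates and bars the mean of 3. Ranks 2, 3 and 26 fall with little spread, rank 1 spreads from 159.7 to 875 RPKM, and SMED30023398 and SMED30010404 stand higher at 48 h than at 72 h.

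The step from 24 to 48 h shares the 24 h libraries with the selection, and its counts describe when the members fell. In this step 58 members (38.7%) were called lower, against 6.28% of all models tested, and 1 was called higher, against 6.80%. The 58 changes ran from -0.64 to -0.14 with a median of -0.34. The median was -0.22 over all 150 members and 0.0004 over all models tested, and 142 members (94.7%) were below 0, against 49.9% of all models tested. The largest fall among the 150 was that of rank 136, which had 2.20, 1.98 and 1.92 RPKM at 48 h, against 3.13, 3.72 and 3.50 RPKM at 24 h, and changed by -0.64 (SE 0.10, limma adjusted p = 0.000651). Of the 75 more abundant members 37 were called, and of the 75 less abundant 21, with median changes of -0.21 and -0.23. The count of 58 became 37 without 48 h replicate 3 and 38 in a fit to the 6 libraries compared. The single rise became 0 without 24 h replicate 1, 48 h replicate 2 or 48 h replicate 3. It became 4 without 24 h replicate 2 (ranks 7, 12, 36 and 53), and 3 without 48 h replicate 1 or 72 h replicate 2.

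The last step, 96 h against 72 h, shares the 96 h libraries with the selection. There 3 members (2.00%) were called lower, against 3.60% of all models tested, and 0 higher, against 1.34%. At an unadjusted p below 0.05, 23 members were lower and 0 higher, against 10.7% and 7.67% of all models tested. Limma-voom called 8 lower and 0 higher, against 5.49% and 3.46% of all models tested in that fit. These 3 were ranks 8, 21 and 41. Rank 8 had 48.1, 51.7 and 52.8 RPKM at 96 h, against 60.1, 60.8 and 57.6 RPKM at 72 h, and changed by -0.22 on the log2 scale (SE 0.05, limma adjusted p = 0.0186). All 3 were also called lower at 48 h than at 24 h. The count of 3 became 0 without 72 h replicate 2 and 1 when either 96 h replicate 2 or 3 was left out. Without 96 h replicate 1 it was 2. The calls without 96 h replicate 1 or 2 held 0 of ranks 8, 21 and 41, and that without 96 h replicate 3 was rank 8. Leaving out 48 h replicate 3 gave 5. In 89 members no single step after 24 h was called lower, and only rank 2 was called lower in both the second and the third day. These counts were not made over all models tested, so whether they are low or high for such models is not known. The steps on the second and the last day also share libraries with the selection.

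Against 0 h, nearly all members were low at 48 and 72 h, in comparisons that share the 0 h libraries with the selection. At 48 h, 147 of 150 members were called lower, against 19.5% of all models tested, and 0 higher, against 20.5%. The exceptions were SMED30023398, SMED30010404 and rank 150. At 72 h, 149 were called lower, against 21.5% of all models tested, and 0 higher, against 22.1%, the exception being rank 150. A called fall of at least 2-fold was reached by 75 members at 48 h, against 2.59% of all models tested, and by 100 members at 72 h, against 2.96%. With a pseudocount of 1 RPKM in place of 0.5 RPKM, 48 and 72 members reached it. By group means, 74 members were at least 2-fold lower at 48 h, 33 first reached that at 72 h and 43 not before 96 h. The 43 late ones had changes of -0.9986 to -0.46 at 72 h, and 8 of the 74 were back above the limit at 72 h. The means fell at every step from 24 to 96 h in 74 members. A higher mean at 72 h than at 48 h was seen in 34 members, and a higher mean at 96 h than at 72 h in 39. The selection placed the 96 h mean of every member below its 24 h mean, which favours falling steps. Counts by group means were not made over all models tested.

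Replicate libraries separated cleanly for nearly all members, with few exceptions. All 3 libraries lay below all 3 at 0 h for 146 members on the first day, 148 on the second, 149 on the third and 149 on the last. Over all models tested these shares were 24.9%, 22.8%, 24.0% and 25.5%, and the counts at 24 and 96 h are those of the selection itself. The exceptions at 24 h were ranks 1, 48, 115 and 150. The exceptions at 48 h were SMED30023398 and rank 150, and rank 150 was the exception at 72 and 96 h. The median SD of a member's log2 values within a group was between 0.08 and 0.10 at the 5 times.

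Rank 1, the most abundant member, shows that a mean can meet the selection while its libraries overlap. It had 533, 430 and 875 RPKM at 0 h, 644, 368 and 218 at 24 h, 383, 160 and 224 at 48 h, 201, 359 and 193 at 72 h, and 227, 238 and 247 at 96 h. One library at 24 h lay above 2 of the 3 at 0 h, while the libraries at 96 h were tight. At 72 h against 48 h its change was 0.01 (SE 0.37, limma adjusted p = 0.997), and a difference of the size seen in most members would not be detectable at that spread. Its counts were 5628 to 19516 reads per library, so counting error is small beside this spread. Rank 48, a shorter model of 626 bases, moved with it: it had 20.8, 15.1 and 29.3 RPKM at 0 h, 25.8, 14.7 and 8.61 at 24 h, 13.5, 7.89 and 9.57 at 48 h, and 8.79, 14.5 and 8.16 at 72 h. The ratio of rank 1 to rank 48 stayed between 20.2 and 29.8 in all 15 libraries. The libraries in which both were highest at 24, 48 and 72 h, replicates 1, 1 and 2, were those in which the 4 members with a high 48 h mean were lowest. Whether reads are shared between ranks 1 and 48 was not tested.

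Rank 3 had most of its fall at 24 h and lay close to the selection limit there. It had 222, 213 and 214 RPKM at 0 h, 109, 112 and 110 at 24 h, 104, 103 and 101 at 48 h, 103, 112 and 100 at 72 h, and 96.2, 99.4 and 103 at 96 h. Its libraries at 72 h overlapped with those at 48 h, with a change of 0.03 (SE 0.04, limma adjusted p = 0.809). Its log2 change on the scale of the selection was -0.97 at 24 h, beyond the members' lower quartile of -0.91.

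The members were set beside the other models that were at least 2-fold lower at 96 h with at least 3 RPKM at 0 h. Of 527 such models, 303 had a 24 h change at or below -1, whatever their later change (early falls). Another 74 had a 24 h change above -1 and a further change of -0.8 or less between 24 and 96 h (late falls). The remaining 150 were the members. The classes were divided by the size of the change at 24 h and between 24 and 96 h, an interval that holds all 3 daily steps, so differences between them in these steps are partly set by the division and are given as a description. At 24 h against 0 h the median log2 change was -0.79 in the members, -1.57 in the early falls and 0.29 in the late falls. By their median the late falls were thus not yet lower at 24 h, unlike the members. In the step from 48 to 72 h, 2.67% of the members were called lower, 4.29% of the early falls and 74.3% of the late falls (limma). The median changes in that step were -0.07 in the members, -0.07 in the early falls and -0.64 in the late falls. In the step from 24 to 48 h, 38.7% of the members, 16.8% of the early falls and 78.4% of the late falls were called lower. In the last step these shares were 2.00%, 2.31% and 73.0%. The median length was 1265 bases in the members, 1267 in the early falls and 685 in the late falls, and the median level at 0 h was 12.5, 7.93 and 33.7 RPKM. The median standard error in these steps was 0.09, 0.14 and 0.07, so the classes were not tested with the same precision, and the differences between them were not tested.

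**Figure D5:**
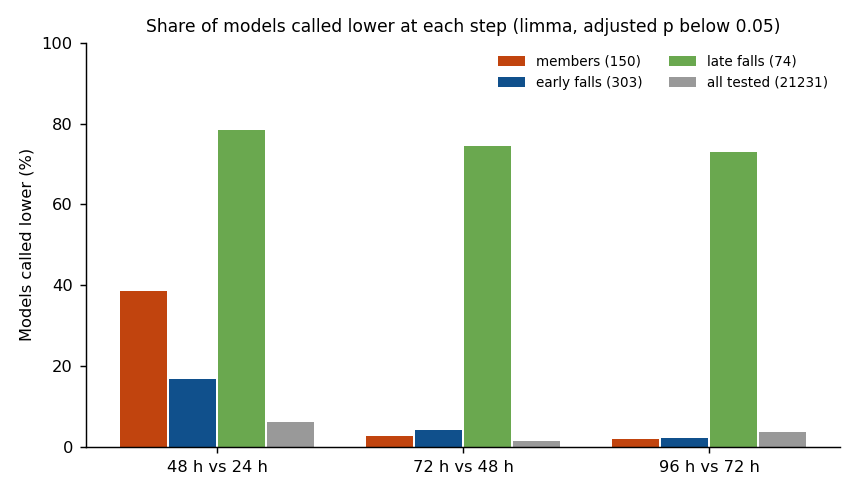
Percentage of models called lower (vertical axis; limma, adjusted p below 0.05) at each daily step (horizontal axis) in the 150 members, 303 early falls, 74 late falls and all 21231 models tested. The members reach 38.7% between 24 and 48 h and 2.67% and 2.00% in the later steps, while the late falls lie between 73.0% and 78.4%.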

How the data were processed

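RPKM for 26671 transcript models in 15 polyA RNA libraries is what the authors deposited. CASAVA 1.8.2, Bowtie and edgeR appear, with no role, in the submitters' processing notes. The transcript set, the use of strand and how multiply matching reads were counted: not given in the sources used here. Whole reads and model lengths were worked out from the steps of the RPKM values; 100% of models came out whole within 0.001 reads. The ratio of the scaling divisor to the recovered reads ran from 0.974 to 1.027. As a relative unit, RPKM does not show changes in total RNA per worm.

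Values were transformed as log2(RPKM + 0.5). Models reaching 1 RPKM in 3 or more libraries (21231) were fitted with limma 3.58.1 in R 4.3.3, with 1 mean per time, all 15 libraries and variances that follow a trend with level. Tests were two-sided with Benjamini-Hochberg adjustment over all models tested. This scale understates changes of low models. Shares of reads are percentages of recovered reads.

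The members, comparison classes and tests were chosen with earlier results of these data known. The rule for naming took at most 2 IDs that fell and 2 that rose among members called between 48 and 72 h; 0 rose. Other members shown were chosen after their values were seen. Alternatives changed the pseudocount, filter, scaling, fitted libraries, replicate block and test, and left out each library. Python 3.11.15 (numpy 2.4.6, pandas 2.3.3, matplotlib 3.10.9) was used for summaries and plots.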

Additional observations from a re-analysis of the deposited data

Results flagged for a closer look

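Each result here stood out because a level differed between successive times in a direct limma contrast with an adjusted p below 0.05. Between 48 and 72 h the log2 change was -0.72 for SMED30023398, -0.67 for SMED30010404, -0.20 for rank 2 and -0.30 for rank 26. Between 24 and 48 h rank 53 rose by 0.58. Between 72 and 96 h the changes were -0.22 for rank 8, -0.14 for rank 21 and -0.23 for rank 41. Rank 21 had 25.7, 25.3 and 25.6 RPKM at 96 h, against 27.8, 28.0 and 28.8 at 72 h. Rank 41 had 10.7, 11.0 and 11.3 RPKM at 96 h, against 13.0, 13.1 and 12.8 at 72 h. The libraries of the 2 times did not overlap in any of these except rank 53, whose lowest 48 h library had 12.8 RPKM and highest 24 h library 12.9 RPKM. The calls for ranks 8, 21, 41 and 53 share libraries with the selection. They were lost under 4, 7, 11 and 5 of 22 alternatives, with highest adjusted p-values of 0.0897, 0.136, 0.167 and 0.106 (limma). Those between 48 and 72 h were lost under 14 alternatives for SMED30023398, 5 for SMED30010404, 1 for rank 2 and 4 for rank 26.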

How the results depend on the processing

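Under 22 alternatives the 8 single-member changes kept their sign, and 0 results were reversed. The count of members lower between 48 and 72 h was 4; it was 1 in the fit to the 6 libraries compared and 10 with limma-voom, and 1 to 5 when single libraries were left out. The median change in that step, -0.07, ranged from -0.089 to -0.064 without single libraries. Between 24 and 48 h, 58 were lower; the fit to 6 libraries gave 38, and leaving out libraries 37 to 61. The 1 member higher there became 2 after quantile normalization, 0 in the fit to 6 libraries, 4 with limma-voom and 0 to 4 without single libraries. Between 72 and 96 h, 3 were lower; quantile normalization gave 1, the replicate block 6, limma-voom 8, and leaving out libraries 0 to 5. The 75 members with a 2-fold fall at 48 h against 0 h became 48 with a pseudocount of 1 RPKM. The cause of these shifts was not tested. Same-numbered samples showed little shared deviation: 1 of 30 same-numbered pairs had a correlation of deviations over 0.1 (range -0.063 to 0.11). On average, 6 of 15 samples were closest to their own number. Whether same-numbered samples shared a culture or batch cannot be told from these values. With the replicate block, 3 members were lower between 48 and 72 h and 58 between 24 and 48 h.

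The selection itself kept its size, at 142 to 158 members without single libraries, 174 and 132 with pseudocounts of 0.1 and 1 RPKM and 137 after quantile normalization. Of the 150 members, 128 to 141 were still chosen without single libraries, 130 and 106 with those pseudocounts and 108 after quantile normalization. Members of low level are limited by depth, with 4 to 23 reads per library at 0 h for rank 150, which was not called against 0 h at 48 or 72 h.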
